A study of Mus musculus with 4 samples.

Results

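Drug efflux pumps and Slco carriers, which move drugs, conjugates and other organic ions across membranes, were followed in the embryonic kidney through 10 genes: Abcc2, Abcc4, Abcb1a, Abcb1b, Abcg2, Slco1a1, Slco1a6, Slco4c1, Slc47a1 and Slco3a1. Their probe sets were those to which the platform annotation gives exactly 1 symbol, which yielded 16 of the 45037 probe sets that are not controls. The annotation names 18193 genes in all. All 4 samples were kidneys of C57BL/6 embryos at embryonic day 15. The dams were assigned to a diet at 8 weeks of age and kept on it from 3 weeks before gestation until the kidneys were taken. The control diet held 220 ppm iron, and the iron deficient diet, a synthetic one, held about 2 to 6 ppm. RNA from 2 pools per diet, of 16 kidneys each, was read on 1 Affymetrix mouse expression array per pool. Whether those pools hold separate litters is not stated, so p-values cover no more than pool-to-pool spread, part of which may be technical.

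As background, renal drug secretion runs through proximal tubule cells. Uptake carriers on the blood side, among them Slc22 and some Slco proteins, load the cell, and efflux proteins of the ABC family and the proton exchanger encoded by Slc47a1 empty it into the urine. ABC transporters spend ATP on export, whereas Slco proteins, the organic anion transporting polypeptides, mostly exchange their substrates for other anions. Nephrons are still forming at this stage, and few of their tubules are mature.

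Promoter sequences from RefSeq (build GRCm38.p6) were found for 8 of the 10 genes, in 11 entries; Slc47a1 and Slco3a1 had none. Those of Abcc2 and Slco1a6 are shown because both genes had signals above background only in the control pools. Of the 2 Abcc4 entries 1 is shown, because the gene's signals overlapped between diets. Each run holds the 250 bases before the annotated start of transcription, on the gene's own strand. Capitals mark exact matches, on either strand, to the 5 motifs searched.
Abcc2, chr19:43782058-43782307, plus strand: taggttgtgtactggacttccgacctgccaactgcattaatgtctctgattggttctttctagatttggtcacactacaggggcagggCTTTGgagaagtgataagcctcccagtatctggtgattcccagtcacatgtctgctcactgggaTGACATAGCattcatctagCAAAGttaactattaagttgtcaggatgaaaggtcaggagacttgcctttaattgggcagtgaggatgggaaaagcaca
Slco1a6, chr6:142186150-142186399, minus strand: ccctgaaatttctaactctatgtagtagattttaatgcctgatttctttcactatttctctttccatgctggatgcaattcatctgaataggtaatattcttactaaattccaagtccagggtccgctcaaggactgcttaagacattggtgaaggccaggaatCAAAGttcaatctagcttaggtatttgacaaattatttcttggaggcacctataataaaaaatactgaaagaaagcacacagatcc
Abcc4, chr14:118706220-118706469, minus strand: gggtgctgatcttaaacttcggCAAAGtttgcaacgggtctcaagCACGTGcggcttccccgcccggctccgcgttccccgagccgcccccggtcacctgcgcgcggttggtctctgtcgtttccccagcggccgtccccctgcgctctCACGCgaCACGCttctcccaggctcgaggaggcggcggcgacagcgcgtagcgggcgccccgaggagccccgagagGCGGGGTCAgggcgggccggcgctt
CAAAG, the core of the motif of the tubule factor HNF4, lay in at least 1 entry of 5 of the 8 genes. It lay at 162 and 79 bases before the start in Abcc2, at 86 in Slco1a6 and at 228 in the Abcc4 entry shown, and at 104 in the other Abcc4 entry. This short motif was also in 48.6% of all 32851 promoter windows of this length. That share and those below count single windows, whereas a member gene counts if any of its entries holds the motif. ACGTG, the core of the hypoxia response element, lay in 2 of the 8 genes, Abcc4 and Abcb1b, against 16.6% of all windows. In the Abcc4 entry shown its matches on opposite strands overlapped, at 205 and 204 bases before the start. The other Abcc4 entry held neither this core nor that of the Ah receptor. The antioxidant element core TGACNNNGC was found for 3 genes (Abcc2, Abcc4 and Slco4c1; 10.2% of all windows) and the Ah receptor core GCGTG for Abcc4 alone (28.2%). The HNF1 motif core GTTAAT was found in none of the entries and in 6.43% of all windows. These matches describe letters and are not shown to be binding sites.

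Of the 16 probe sets, 9 of 6 genes passed the brightness filter and were tested for a diet difference, and the other 7 are given by their signals. A signal is the deposited intensity, on a linear scale, and the background of an array is the highest of its 27 control probe sets for transcripts not expected in mouse RNA. That background was 8.5 and 8.2 in control pools 1 and 2, and 14.4 and 13.3 in iron-deficient pools 1 and 2. Iron-deficient pool 1 stood apart from the rest: its log2 signals correlated across probe sets at 0.883 to 0.913 with the other arrays, which correlated at 0.97 to 0.978 among themselves. The 18S ribosomal RNA control (5′ probe set) was 2144.5 there and 243 to 291.9 elsewhere. The Y-linked gene Eif2s3y had control signals of 594.5 and 600 and iron-deficient signals of 253.6 and 20.8, although every sample is labelled female. Eif2s3y was lowest in iron-deficient pool 2. Xist read 926.6 and 167.8 for control (mean 547.2) and 3427.3 and 1543.3 for iron deficiency (mean 2485.3). Its highest signal was thus in iron-deficient pool 1, not in the pool with the lowest Eif2s3y signal. Sex-linked signals thus differed along with diet, and a part of sex mix cannot be told apart from one of diet. The part of these differences between arrays in the transporter signals was not tested. Values without iron-deficient pool 1 are given for the members, and these keep the pool with the lowest Eif2s3y signal. The embryonic kidney markers were present, with all 9 of 9 annotated ones above background on all arrays, among them the progenitor gene Six2 and the podocyte gene Wt1.

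None of the 9 tested probe sets passed the test over all 27022 (limma, smallest adjusted p of a member 0.667), and neither did any other probe set, so that 0% were called. In simulated data with the fitted spread and changes planted in few of the probe sets, 0% of the 16-fold changes passed either. The lack of calls therefore does not show a lack of difference. The simulation did not model the way iron-deficient pool 1 stood apart. At an unadjusted p under 0.05 lay 1069 of all probe sets (3.96%). Abcc2 and Slc47a1 were the members among them, both lower in the iron-deficient pools, as were 2.81% of all tested probe sets; no member was higher at that p, as were 1.14%. Both iron-deficient pools lay below both control pools for 4 of the 9 tested probe sets, against 25% of all tested, and above both for 0, against 11.8%. Over all 16 probe sets, dim ones included, 5 were lower in this sense and 2 higher, against 20.4% and 13.9% of all 45037. Without iron-deficient pool 1, 6 of the 9 lay below both controls and 3 above, where 40.5% and 31.3% of all tested did. Without iron-deficient pool 2 the counts were 7 and 1, where 52.6% and 34.9% did. Over all probe sets, 75 passed when control pool 1 was left out and 31 when control pool 2 was, with no member among them. The median log2 difference, iron-deficient minus control, was -0.26 over the members and -0.10 over all tested probe sets. The 4 separated probe sets were those of Abcc2, Slc47a1 and Abcg2 and 1 of 3 of Slco3a1. After quantile normalization 3 remained separated (Abcc2, Slc47a1 and Abcg2), and after median centring Abcc2 and Slc47a1 did, joined by 1 probe set of Slco4c1.

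**Figure D1:**
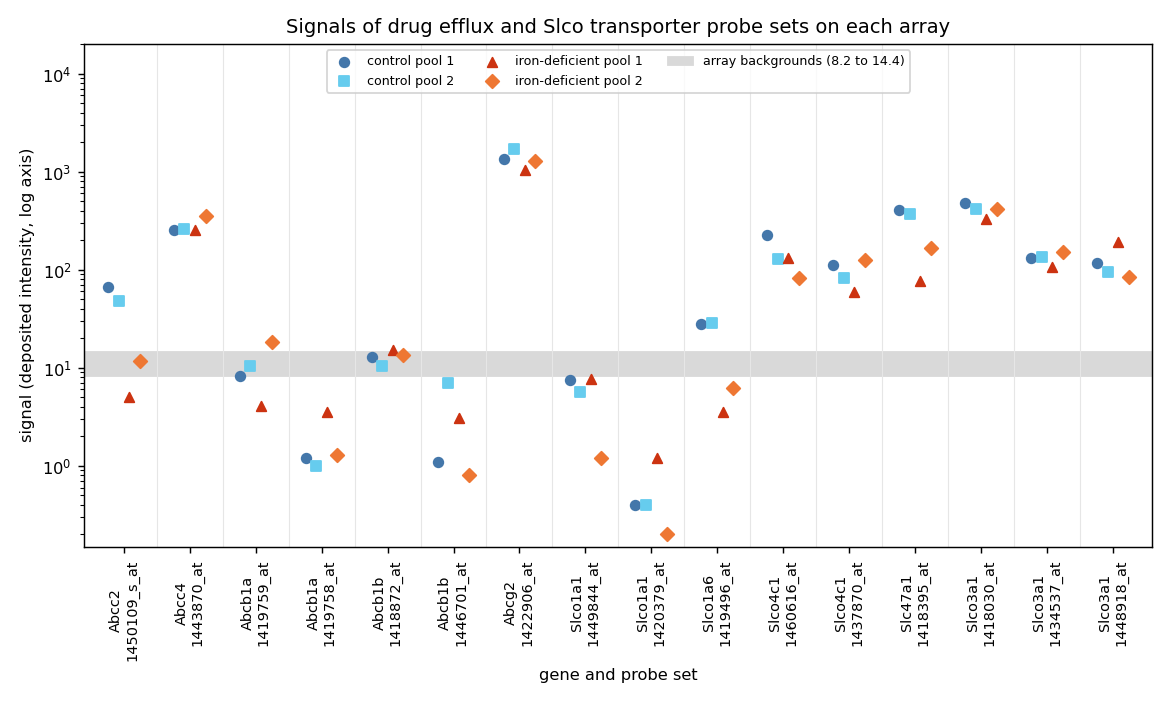
Signal of each of the 16 probe sets on each of the 4 arrays, on a log axis, with the range of array backgrounds from 8.2 to 14.4 in grey. Abcc2, Slco1a6 and Slc47a1 have both iron-deficient points well below both control points, while Abcb1a, Abcb1b and Slco1a1 lie near or under the grey band.

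Among the efflux pumps, Abcc2 had the largest difference. It encodes MRP2, an apical pump for glutathione and glucuronide conjugates. Its probe set, 1450109_s_at, had control signals of 66.9 and 47.9 and iron-deficient signals of 5 and 11.8. Both control signals were above background and neither iron-deficient signal was, so Abcc2 was at least 4.09-fold lower in the iron-deficient pools. It entered the test only through its control signals, since both iron-deficient signals were also under the filter limit of 17.3, so its fitted values rest in part on signals below background. On the signals as given, its log2 difference was -2.88 ± 0.51 (SE, 2 pools per diet; limma adjusted p = 0.667), and -2.03 with signals below background set to it. Without iron-deficient pool 1 it was -2.26, and without pool 2 it was -3.50. With each array centred on its median, Abcc2 was among 201 probe sets that passed by limma, on the same signals below background. The members' p-values then followed the size of the difference alone, not each probe set's own spread. The suffix of the probe set name marks probes shared by several transcripts, and Abcc2 drops out where such probe sets, or the dimmest 60% of all probe sets, are left out.

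Abcc4 encodes MRP4, an apical pump for organic anions and cyclic nucleotides, and its signals did not separate the diets. On its probe set, 1443870_at, they were 253.3 and 256.9 for control and 252.5 and 354 for iron deficiency, so that iron-deficient pool 2 was the highest and the other 3 lay close together. The log2 difference was 0.23 ± 0.34 (SE), with a 95% interval from -0.63 to 1.08. After quantile normalization both iron-deficient values were above both controls (0.42), and the difference was 0.47 without iron-deficient pool 1 and -0.01 without pool 2.

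Abcg2 encodes BCRP, which exports urate and porphyrins and is found on red cell precursors and endothelium as well as tubule. Its probe set, 1422906_at, had control signals of 1347.9 and 1703 and iron-deficient signals of 1028.1 and 1271.3. Both iron-deficient signals were below both control signals, but the step from the lower control to the higher iron-deficient signal was smaller than the distance between the control pools. The log2 difference was -0.41 ± 0.34 (SE; 95% interval -1.25 to 0.44; limma adjusted p = 0.852). It was -0.25 without iron-deficient pool 1, and after median centring the diets overlapped. By the brightest probe set of each gene, 26% of all 12997 tested genes had both iron-deficient signals under both controls, and 13.1% had them over both. Of 8 tested endothelial markers, both iron-deficient signals were under both controls for 4 and over them for 2 (summed signals 4390.4 and 4459.0 for control, 4340.2 and 4059.7 for iron deficiency). Of 8 tested red cell markers 6 were higher and 1 was lower, with sums of 2953.8 and 3291.9 against 9570.4 and 6699.7. No marker of either list was at 0, and their part in the Abcg2 signal was not tested.

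Abcb1a and Abcb1b, which lie next to each other on chromosome 5, both encode P-glycoprotein, the multidrug efflux pump. None of their 4 probe sets was bright enough to be tested. The brighter Abcb1a probe set read 8.2 and 10.4 for control against 4.1 and 18.5 for iron deficiency, so the iron-deficient pools held both the lowest and the highest signal. The brighter Abcb1b probe set read 12.8 and 10.4, then 15 and 13.6, each above the background of its own array, narrowly so in the iron-deficient pools. The dimmer probe set of each gene was not above background on any array. Abcb4, the phospholipid exporter that neighbours Abcb1b, was also not above background on any array.

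Slc47a1 encodes MATE1, the apical exchanger that moves organic cations such as metformin into the urine. On its probe set, 1418395_at, control signals were 403.7 and 368.5 and iron-deficient signals 75.9 and 167.7, all above background. Both iron-deficient signals lay far below the lower control signal, and pool 1 was the lower of them. The log2 difference was -1.77 ± 0.46 (SE; 95% interval -2.94 to -0.61), a 3.42-fold lower level, with an unadjusted p of 0.0104 by limma and an adjusted p of 0.852. It was -1.20 without iron-deficient pool 1 and -2.35 without pool 2. Of all tested probe sets, 0.588% had a lower difference.

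**Figure D2:**
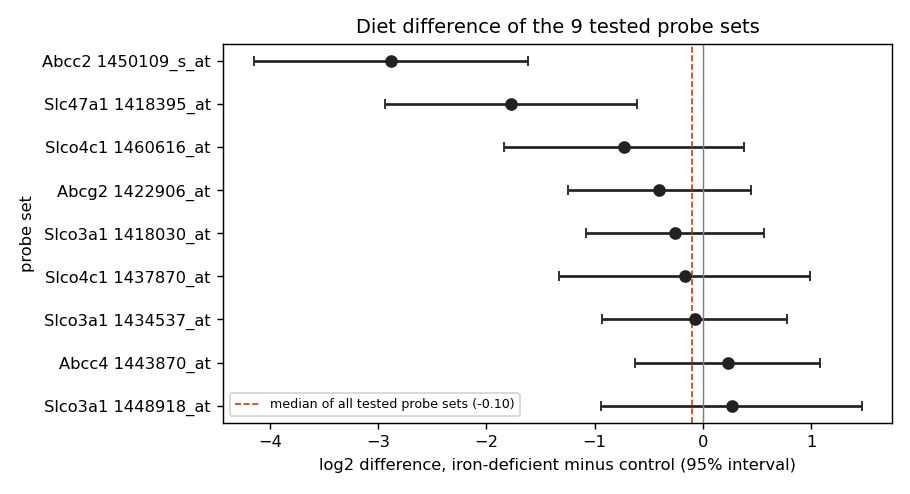
Diet difference (log2, iron-deficient minus control) for the 9 tested probe sets, with 95% intervals from limma; the dashed line is the median of all tested probe sets, -0.10. The intervals of Abcc2 (-4.15 to -1.62) and Slc47a1 (-2.94 to -0.61) lie below 0 and the other 7 span it.

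Among the Slco genes, Slco1a6, an organic anion transporter, had control signals of 28 and 28.4 and iron-deficient signals of 3.5 and 6.2 on 1419496_at. The control pools were alike and above background, and both iron-deficient signals were below it, so Slco1a6 was at least 2.04-fold lower. Its mean was too dim for the filter. With no filter its difference was -2.60 ± 0.45 (SE), with an adjusted p of 0.69 over 45037 probe sets by limma, and -1.03 with signals below background set to it. Against the control mean it was -3.01 in iron-deficient pool 1 and -2.19 in pool 2. Slco1a1, an anion transporter of the same chromosome 6 cluster that is strong in adult kidney and liver, was not above background on any array with either of its probe sets, whose signals ran from 0.2 to 7.6. In that cluster Slco1a4 read 67.1 and 51.7 against 31.8 and 77, so its diets overlapped, and Slco1a5 was not above background on any array.

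Slco4c1, a blood-side carrier of digoxin and thyroid hormone, has probe sets that placed the iron-deficient pools in opposite order. The brighter, 1460616_at, gave 228.2 and 129 for control and 130.2 and 81.9 for iron deficiency, so that the diets just overlapped. The dimmer, 1437870_at, read 112.8 and 83, then 59.4 and 124.2, so pool 2 was the lowest sample on one and the highest on the other. Their log2 differences were -0.73 ± 0.44 and -0.17 ± 0.46 (SE), and without iron-deficient pool 1 they were -1.07 and 0.36. The second was 0.05 without control pool 1.

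Slco3a1, a widely expressed carrier of prostaglandins and thyroid hormone, has 3 tested probe sets. The brightest, 1418030_at, gave 475.1 and 415.7 for control and 331.6 and 412.9 for iron deficiency, so the diets were separated by less than the gap between pools of either diet (-0.26 ± 0.33, SE; -0.11 without iron-deficient pool 1). The others overlapped between diets. 1434537_at read 131.7 and 135.1 against 107 and 149.9 (-0.07 ± 0.34), and 1448918_at read 116.6 and 95.7 against 192.3 and 84 (0.27 ± 0.48). In iron-deficient pool 1 the third probe set was 0.86 log2 units above the control mean, where the other two lay at -0.42 and -0.32. Without that pool the differences of the last pair were 0.17 and -0.33, each with its sign turned.

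**Figure D3:**
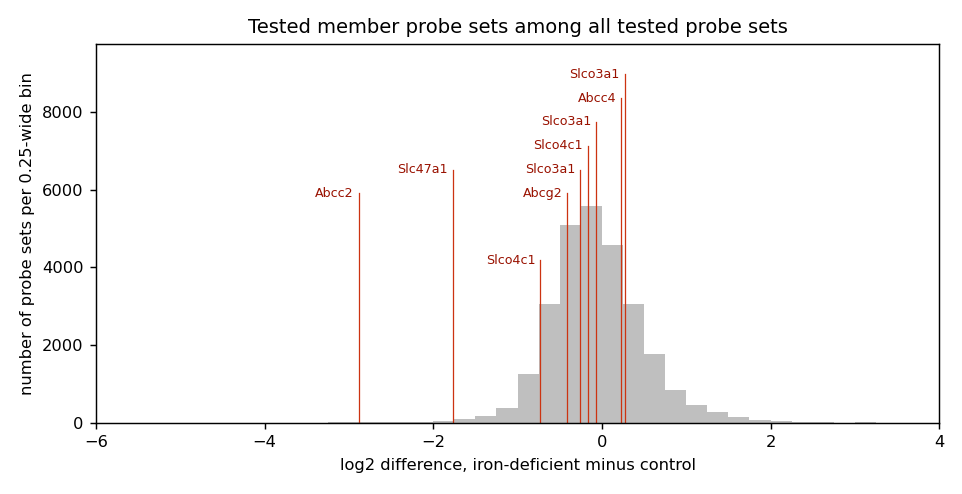
Histogram of log2 differences of the 27022 tested probe sets in bins of 0.25, with the axis cut at -6 and 4, and red lines at the 9 tested member probe sets. Abcc2 (-2.88, from iron-deficient signals below background) and Slc47a1 (-1.77) lie in the lower tail, and the others lie within the bulk.

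The genes that work beside these transporters were described from fixed lists, each gene by its brightest probe set. On that basis 26% of all 12997 tested genes lay below both controls in both iron-deficient pools, 13.1% lay above, while 3.3% were lower and 1.26% higher at an unadjusted p under 0.05. None of the listed genes passed over all probe sets by limma. After median centring 7 proximal tubule, 2 Slc22, 2 loop or distal, 2 red cell, 3 sex-linked and 1 hypoxia gene did. In that fit the p-values of the members ranked by size of difference alone, so such calls take little account of each gene's own pool spread. The sign of every list's median was the same after quantile normalization and median centring, except that the transcription factors had a median of 0 after quantile normalization. Of the members, 4 of 6 tested genes were lower in both pools. In iron-deficient pool 2 alone, against the control mean, list medians were -1.35 for Slc22 carriers, -0.18 for scaffold genes, 0.07 for transcription factors, -0.05 for other Abcb and Abcc genes and 0.39 for other Slco genes. Among Slc22 uptake carriers, 4 of 4 tested genes were lower in both pools, 3 of them at an unadjusted p under 0.05, with a median of -2.09. Slc22a6, the organic anion carrier OAT1 that loads the cell with substrates of Abcc2 and Abcc4, had control signals of 521.7 and 587.4 against 29.9 and 116.4 (-3.23 ± 0.67, SE). The anion carrier Slc22a8 differed by -0.96 ± 0.37. The urate exchanger Slc22a12 read 90.1 and 99.8 against 1.7 and 35.2 (-3.62 ± 1.36), with 1 iron-deficient signal below background. The mean of its log2 iron-deficient signals was under the filter limit of 17.3. Slc22a12 is among the 4 and the 3 but, like Abcc2, entered the test only through its control signals. Slc22a2, which takes up the organic cations that Slc47a1 exports, read 89.5 and 94.8 against 0.8 and 6. It was left untested by the filter, and neither iron-deficient signal was above background.

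Apical scaffold genes were lower in both pools for 4 of 5 tested (median -0.71), and for 3 and 2 after quantile normalization and median centring. Pdzk1, whose protein binds the tails of several apical transporters, averaged 843.9 against 296.3 (-1.55 ± 0.38, SE), its membrane partner Pdzk1ip1 differed by -1.57 ± 0.54, and Slc9a3r2 by -0.71 ± 0.47. Of 7 tested transcription factors and partners that act on drug transporter genes, 1 was lower in both pools and none higher (median -0.13). That gene was Hnf4a, which averaged 1909.55 for control and 1073.6 for iron deficiency (-0.83 ± 0.32, SE); its 3 tested probe sets differed by -3.21 to -0.83. Arnt and Ppara differed by 0.46 ± 0.41 and 0.24 ± 0.34, and both dimmer Ppara probe sets were negative, down to -0.53. Nr1i2, the xenobiotic receptor PXR, was not above background on any array.

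The other Abcb and Abcc transporters had 4 tested genes of 8, with 1 lower in both pools, none higher and a median of -0.23. Abcc3, a blood-side conjugate pump, read 121.6 and 117.5 against 54.3 and 85.5 (-0.81 ± 0.37, SE), while Abcc5 and Abcc10 differed by 0.82 ± 0.54 and -0.35 ± 0.37 with overlapping pools. Of 11 other Slco genes 5 were tested, with 1 lower, none higher and a median of 0.11. The prostaglandin carrier Slco2a1 differed by -0.51 ± 0.38, and by 0.50 on a dimmer probe set, and Slco5a1 and Slco4a1 by 0.45 ± 0.45 and 0.29 ± 0.44.

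Proximal tubule markers were lower alongside Abcc2, Slc47a1 and Slco1a6. All 12 tested markers, of 13 annotated, lay below both controls in both iron-deficient pools, with a median of -2.60 (-3.14 in pool 1 and -1.96 in pool 2). After quantile normalization or median centring 11 of the 12 were. The 13 signals summed to 4949.1 and 4734.0 for control and 743.5 and 1884.9 for iron deficiency. Slc17a1, Slc5a1 and Miox carry phosphate and glucose and break down inositol. They differed by -4.23 ± 0.38, -3.09 ± 0.33 and -2.84 ± 0.40 (SE). Miox was below background in both iron-deficient pools and Slc17a1 in 1. Both iron-deficient signals of Slc17a1 (8.5 and 14.3) and of Miox (7.2 and 12.4) were under the filter limit of 17.3. Slc17a1 and Miox are among the 12 but, like Abcc2, entered the test only through their control signals. Their fitted values rest in part on signals below background. None of the markers was listed at 0. In pooled tissue, fewer tubule cells and less RNA per cell cannot be told apart, and the part of the tubule markers in the transporter differences was not tested. Loop of Henle and distal tubule markers were lower in 4 of 5 tested, with a median of -1.91, including Umod (-2.37 ± 0.43), Cldn16 (-1.91 ± 0.42) and Slc12a1 (-1.72 ± 0.40).

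Of all 12997 tested genes, 26% were lower in both pools and 13.1% higher, with a median of -0.14. Embryonic kidney markers had a median of 0.18, with 3 of 9 higher and 2 lower, and Nphs1, Cited1 and Six2 differed by -0.98 ± 0.43, -0.63 ± 0.42 and 0.44 ± 0.34 (SE). Hepatocyte markers, listed because Abcc2 and several Slco genes are strong in liver, had none of 6 tested genes separated. Their signals summed to 1582.8 and 1446 for control, 305 for iron-deficient pool 1 and 3041.9 for pool 2, and Apoa1, Ttr and Afp differed by 1.60 ± 0.89, -1.90 ± 1.62 and -1.33 ± 1.16. The part of the hepatocyte markers in the Abcc2 signals was not tested. Abcb11, the bile salt pump, was not above background on any array. Macrophage markers were lower in both pools for 2 of 7, near the 26% of all tested genes, with a median of -0.27. Those 2 were Adgre1 and C1qa, at -0.78 ± 0.34 and -0.84 ± 0.45, while Mrc1, at -0.58 ± 0.42, overlapped between diets. Endothelial markers had a median of -0.28, with Flt1 at 1.92 ± 0.42, Tek at -0.69 ± 0.31 and Esam at -0.88 ± 0.42. Red cell markers had a median of 1.72, led by Hemgn (2.49 ± 0.32), Hbb-bh1 (2.44 ± 0.34) and Hba-x (1.96 ± 0.36). Hypoxia genes were higher in both pools for 10 of 11 (median 1.38), with Adm, Hk2 and Pfkfb3 at 2.42 ± 0.42, 1.60 ± 0.31 and 1.59 ± 0.33. Of the sex-linked genes, 2 of 3 tested were lower in both pools, Eif2s3y (-3.04 ± 1.13) and Kdm5d (-2.90 ± 1.36), and Xist was higher (2.54 ± 0.88). Kdm5d read 117.7 and 93.8 against 64.2 and 3.1, the last below background. The mean of its log2 iron-deficient signals was under the filter limit, so Kdm5d entered the test only through its control signals.

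**Figure D4:**
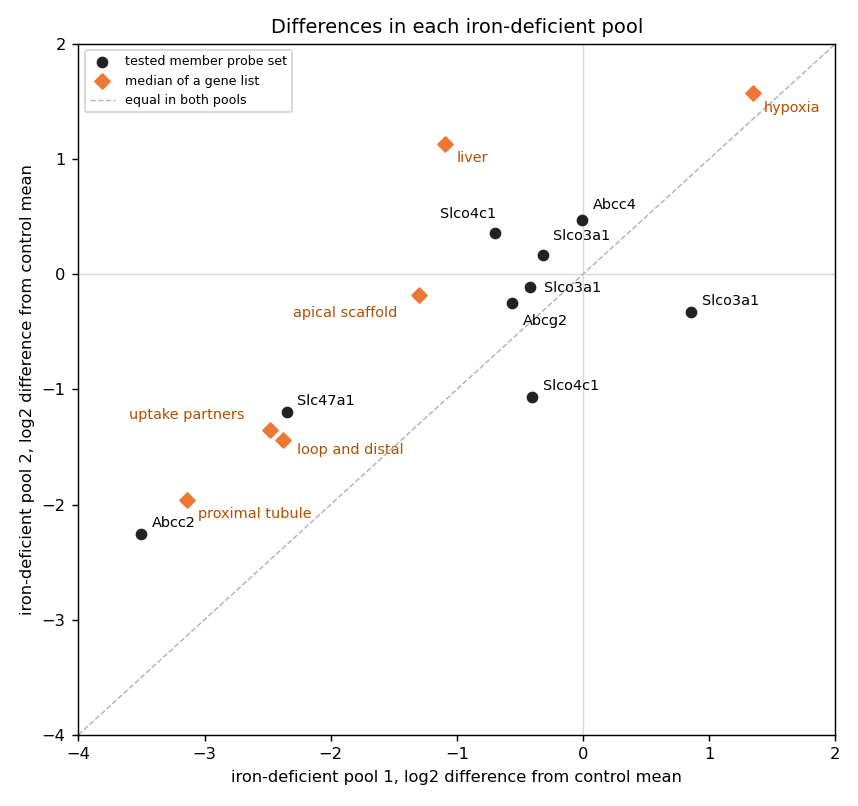
Log2 difference from the control mean in iron-deficient pool 1 (x) and pool 2 (y) for the 9 tested member probe sets (black) and the medians of 6 gene lists (orange); the dashed line marks equal values. Abcc2 (from iron-deficient signals below background) and Slc47a1 lie near the tubule lists, lower in pool 1 than in pool 2. The liver list is below 0 in pool 1 and above it in pool 2.

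The genes nearest to each member were found by Euclidean distance over the 4 arrays, on log2 signals minus the control mean. Nearest to Abcc2, whose iron-deficient signals were below background, were Acsm2, at 0.22, and Slc27a2, a fatty acid transporter from the proximal tubule list, at 0.30. Nearest to Slc47a1 were Plscr2 and Ttc30a2 (0.05 and 0.11), and to Slco4c1 Clrn1 and C2cd4c (0.25 and 0.26). Abcc4 was nearest to Tgfb3 and Acvr2b (0.03 each), Abcg2 to Scaf4 and Cd72 (0.03 and 0.07) and Slco3a1 to Phf20 and Unkl (0.02 and 0.03). The distances describe these 4 arrays only.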

How the data were processed

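RNA from 4 kidney pools, 2 per diet, was biotin-labelled and hybridised to 1 array each. Per the labels' protocols the label was added to cRNA. The authors deposited 1 linear intensity per probe set and array. They run from 0 to 13762.6, and each array's mean after trimming at both ends is 250.0. The submitters' processing notes name RMA, which would give logarithmic values. For these linear values the software is therefore not given in the sources used here.

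Zeros (3, 1, 1 and 1 per array) were set to 0.1 and signals turned to log2. The 64 control probe sets and the 40% of the other 45037 with the lowest mean log2 signal were left out (limit 17.3), which left 27022. Diet differences were tested with limma (version 3.58.1, R 4.3.3; lmFit, eBayes, two-sided, diet as the only term, Benjamini-Hochberg over 27022, 2 residual and 3.49 prior degrees of freedom). The number of arrays limits the precision. In simulated data with the fitted spread (27022 probe sets), 92.8% of 4-fold changes were found at an unadjusted p of 0.05 and 0% at an adjusted p of 0.05. At that adjusted p, 0% of 8-fold and 16-fold changes were found too. Changes were planted in few of the probe sets, and each probe set had the same spread on every array, unlike the data, where iron-deficient pool 1 stood apart. A fold with "at least" compares mean log2 control signals with, per iron-deficient array, the higher of signal and background.

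The members and lists were chosen with earlier results of these data known. The text names all members, up to 3 tested genes per list by smallest p, and 2 nearest genes per tested member; Abcb4, Abcb11, Slco1a4, Slco1a5, Slc22a2, Slc9a3r1, Nr1i2 and Wt1 were named after their values were seen. Of the 45037 probe sets, 34945 have 1 gene symbol, 932 several and 9160 none. Genes of the lists that lacked a probe set with 1 symbol were not analysed here. Alternatives were 2 filters, quantile normalization, median centring, an offset of 16, signals set to background, 3 changes of the eBayes or array weighting, the replicate block, each pool left out, 1 probe set per gene, and no shared probe sets (_s_at, _x_at).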

Additional observations from a re-analysis of the deposited data

Results flagged for a closer look

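The 18S ribosomal RNA control (5′ probe set), which enters no comparison, read 2144.5 in iron-deficient pool 1, above both control pools (291.9 and 289.4) and iron-deficient pool 2 (243). Its relation to the transporter signals of that pool was not tested.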

How the results depend on the processing

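Abcc2, Slc47a1, Abcg2, the brightest Slco3a1 and the brighter Slco4c1 probe set kept a negative difference under every alternative that tested them, with ranges of -3.50 to -1.59, -2.35 to -1.20, -0.57 to -0.24, -0.42 to -0.10 and -1.14 to -0.32. The Abcc2 value nearest 0 came with an offset of 16, and Abcc2 had no value with the lowest 60% or shared probe sets left out. The number of tested member probe sets lower in both iron-deficient pools was 4, against 5 with no filter and 3 after quantile normalization or median centring. It was also 3 with the lowest 60% or shared probe sets left out, and 4 to 7 with a pool left out. The number higher was 0, but 2 with no filter, 1 after quantile normalization and 0 to 3 with a pool left out. The members' median was -0.26, against -0.10 after quantile normalization, -0.57 with 1 probe set per gene and -0.42 to -0.17 with a pool left out. The count of all probe sets past the adjusted threshold was 0, against 201 after median centring, 13 with 1 probe set per gene and 0 to 75 with a pool left out, when the lone pool of a diet is assumed to vary like the others. The share of higher ones among probe sets at an unadjusted p under 0.05 was 28.9%, 40.7% after quantile normalization and 55.6% after median centring. Slco3a1 1434537_at turned to 0.08 after quantile normalization. With a pool left out it ranged from -0.32 to 0.17, Slco3a1 1448918_at from -0.33 to 0.86, Slco4c1 1437870_at from -0.70 to 0.36 and Abcc4 from -0.01 to 0.47. The causes were not tested. Pools share only a number: deviations of same-numbered pools correlated at 0.357 with 2 pairs. With the replicate block 479 probe sets passed, among them Slc47a1 (adjusted p = 0.0137) and Abcc2, whose iron-deficient signals were below background, by limma. With the block, as with median centring, the members' p-values followed the size of the difference alone. These calls therefore take little account of each probe set's own spread between pools.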

Other observations

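Probe sets of some genes that work with these transporters disagreed. Abcc5, an exporter of cyclic nucleotides, had 7 tested probe sets with log2 differences from -0.86 to 0.82, 4 of them negative and 3 positive, and its brightest one read 809.3 in iron-deficient pool 1 against 240.1 to 329.9 on the other arrays. The brightest probe set of the scaffold gene Slc9a3r1 likewise read 4169.2 in iron-deficient pool 1, against 1740.9 to 2070.1 on the other arrays, and its 3 tested probe sets differed by -0.48 to 0.45. For both genes the pools overlapped between diets.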
